A study of Mus musculus with 4 samples.

Results

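Cd36-high jejunal enterocytes are the absorptive cells of the neonatal mouse jejunum in which the fatty acid receptor gene Cd36 took the largest share of the captured RNA. An enterocyte was taken as a called cell with 1000 to 6000 genes, at least 2000 UMIs (distinct RNA molecules, counted by their barcodes), a mitochondrial share under 20%, at least 3 of the 6 enterocyte genes Fabp1, Fabp2, Apoa1, Apoa4, Alpi and Lct detected, and fewer than 2 of the 5 cycling genes Mki67, Top2a, Ube2c, Cdk1 and Birc5. In each of the 2 jejunum libraries the 10% of these enterocytes with the highest Cd36 share of UMIs were the members. There were 774 members of 7743 enterocytes in replicate 1 and 501 of 5011 in replicate 2, which makes 1275 of 12754 jejunal enterocytes and of 36202 called cells in the 4 libraries of the series. The members were compared with the enterocytes of the same library that held 0 Cd36 UMIs (4037 and 2197 cells) and with the remaining enterocytes, called cells between (2932 and 2313).

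CD36 is a membrane protein that binds long-chain fatty acids and helps them enter cells, and in the small intestine it sits on the apical side of enterocytes. Suckling mice live on milk fat, which enterocytes take up as fatty acids and monoglycerides, rebuild into triglyceride in the endoplasmic reticulum, pack with apolipoproteins into chylomicrons and release towards the lymph. Enterocytes are born in the crypt and move up the villus, changing their genes as they go, and in the suckling period they also take up intact milk proteins, carry maternal antibody across the epithelium and digest protein in lysosomes.

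The study asked how the jejunum and the ileum of the suckling mouse differ in absorption and transport across the epithelium. Epithelium of the medial jejunum and the ileum was taken from 2 wild-type mice (genotype WT) at postnatal day 6, released with EDTA, dissociated with dispase and captured without sorting by PIPseq, a droplet method that reads the 3′ end of each RNA. Replicate 1 is the mouse labelled male in batch 1 and replicate 2 the mouse labelled female in batch 2. Each class of cells is therefore 1 sum per mouse, with n = 2 mice, and mouse, labelled sex and batch cannot be told apart.

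The 2 jejunum libraries held 10001 and 7539 called cells with 64391480 and 57951874 UMIs. Xist, which is transcribed from the inactive X chromosome, and Eif2s3y, on the Y chromosome, went against the sex label in all 4 libraries. In the jejunum, Xist was at 467 CPM (the usual scale that divides a gene's UMIs by all UMIs of the library or class) in replicate 1 and 0.984 CPM in replicate 2, and Eif2s3y stood at 0.109 and 66.4 CPM. Other Y-linked genes were mixed. Kdm5d (0.885 and 12.4 CPM) and Ddx3y (84.05 and 190 CPM) were lower in replicate 1, whereas Uty was higher there (142 and 74.4 CPM). The replicate numbers are used here without the sex labels. At most 1 cell barcode was shared between any pair of libraries. Members held a median of 3842 and 4577 UMIs, close to cells with 0 Cd36 UMIs (4240 and 4682), whereas cells between were deeper, at 7504 and 9009. The median mitochondrial share was 7.95% and 11.3% in members, 7.26% and 11.9% in cells with 0 Cd36 UMIs, and 4.47% and 7.80% in cells between.

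The 6 enterocyte genes of the rule are described first. Apoa4, an apolipoprotein of chylomicrons, was at 22107 and 22569 CPM in the members and 14414 and 16093 CPM in cells with 0 Cd36 UMIs. Apoa1, its neighbour in the same gene cluster, was at 14543 and 13839 CPM against 10284 and 10024 CPM. Alpi, the intestinal alkaline phosphatase of the brush border, was at 1604 and 1635 CPM against 899 and 897 CPM, and Lct, which encodes the lactase that splits milk sugar, at 2333 and 2310 against 1863 and 1726 CPM. The cytosolic fatty acid binding proteins differed less. Fabp1 was at 5302 and 5106 CPM in members and 5873 and 5258 CPM in cells with 0 Cd36 UMIs, and Fabp2 at 5490 and 4851 against 5386 and 4401 CPM. These genes admitted a cell as an enterocyte, so their levels are no check of the label and are given without a test. Of enterocyte genes that the rule did not use, the members held Vil1, villin of the microvilli, at 387 and 386 CPM and Ace, a dipeptidase of the brush border, at 1658 and 1508 CPM.

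Cd36 itself, which chose the members, stood at 733 and 661 CPM in members and at 207 and 203 CPM in cells between, and these levels are a description only. A member held a median of 3 Cd36 UMIs in either library, with a range of 1 to 16 in replicate 1 and 1 to 15 in replicate 2. The last cell taken in replicate 1 had a Cd36 share of 495.0 CPM (1 of 2020 UMIs) and the first left out 494.8 CPM (1 of 2021 UMIs), while in replicate 2 the same pair stood at 478.3 CPM (7 of 14636 UMIs) and 478.1 CPM (3 of 6275 UMIs). With so few molecules per cell, counting error takes part in the choice. When each cell's UMIs were split at random and the cells were chosen on the first portion, Cd36 in the other portion was 388 and 348 CPM in the chosen cells, 207 and 206 CPM in cells between and 102 and 112 CPM in cells with 0 Cd36 UMIs in the first portion. A cell with 0 Cd36 UMIs is thus not shown to lack the gene. The order of the classes was the same in UMIs that the choice had not used, with a narrower gap.

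**Figure D1:**
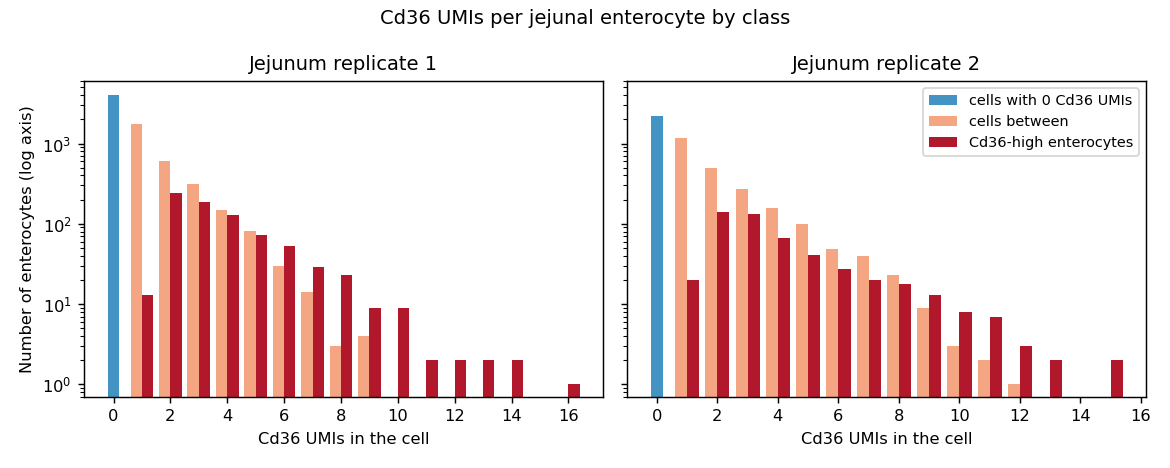
Number of jejunal enterocytes (vertical axis, log scale) by Cd36 UMIs in the cell (horizontal axis) in each replicate, coloured by class. Members overlap cells between from 1 Cd36 UMI upwards, since a share depends on the depth of the cell, and the highest counts, up to 16 and 15 UMIs, were in members.

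Over all jejunal enterocytes, Cd36 stood at 152 CPM in replicate 1 and 168 CPM in replicate 2, and 47.9% (95% exact binomial interval 46.7 to 49.0) and 56.2% (54.8 to 57.5) of the cells held a Cd36 UMI. With each cell thinned to 2000 UMIs the shares were 25.6% and 26.3%. Ileal enterocytes chosen by the same limits held a Cd36 UMI in 3.23% and 2.71% of cells at median depths of 13294 and 11738 UMIs, more than in the jejunum (5126 and 6044). Their Cd36 level was 3.04 and 2.61 CPM. Jejunal cells with 2 or more cycling genes were at 46.4 and 40.9 CPM. These intervals cover counting error only.

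In the first comparison, members against cells with 0 Cd36 UMIs, UMIs were summed per library and class and tested with edgeR's quasi-likelihood test with the library as a block. Of 13909 genes tested, 4017 passed an adjusted p of 0.05 (28.9%), 1966 of them higher in members (14.1%) and 2051 lower (14.7%). The list counts below are to be read beside these shares, and those against cells between beside 8.79% higher and 11.9% lower. For 3990 of them the log2 change had 1 sign in the 2 mice. The median log2 fold change of all tested genes was -0.02. TMM factors, which centre the bulk of the genes, place a log2 fold change 0.11 (replicate 1) and 0.13 (replicate 2) above the plain ratio of CPM values. With library totals in their place the calls were 1315 higher and 2989 lower.

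The 12 genes with the largest rise by the naming rule included enzymes of the cell membrane and a lysosomal protease. Gatm, which encodes the enzyme of the first step of creatine synthesis, was at 165 and 83.1 CPM in members and 25.7 and 13.9 CPM in cells with 0 Cd36 UMIs, a log2 fold change of 2.77 (SE 0.10, adjusted p = 3.9e-12). Enpp3, an ectonucleotidase of the apical membrane, was at 540 and 321 CPM against 115 and 70.2 CPM (2.34, SE 0.08, adjusted p = 3.9e-12). Both genes lay several-fold apart in each mouse, well beyond the difference between the mice. Sprr2a2, a small proline-rich protein of the epithelial surface with near-identical copies beside it, was at 296 and 97.1 CPM against 43.7 and 37.1 CPM (2.31), and its members' levels differed more between the mice than those of any other gene of this group described here. Lgmn, which encodes the lysosomal protease legumain, was at 4379 and 2374 CPM against 1342 and 562 CPM (2.01), and Ctsl, which encodes cathepsin L, was at 3768 and 2682 against 1463 and 852 CPM (1.63).

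Enpp7, the alkaline sphingomyelinase that digests the sphingomyelin of milk, was at 120 and 110 CPM in members and 39.3 and 30.5 CPM in cells with 0 Cd36 UMIs (1.84). Bst1, a GPI-anchored enzyme that acts on NAD, was at 501 and 360 CPM against 168 and 109 CPM (1.77), and Mmp15, a membrane-type matrix metalloproteinase, at 129 and 89.5 against 32.0 and 22.3 CPM (2.13). Apcdd1, an inhibitor of Wnt signaling at the membrane, was at 71.3 and 74.4 CPM against 21.9 and 22.7 CPM (1.83). Podn, which encodes an extracellular proteoglycan, was at 84.8 and 92.1 CPM against 24.5 and 29.7 CPM (1.84), Eepd1, a nuclease family gene, at 107 and 110 against 39.0 and 29.3 CPM (1.79), and Msrb3, a methionine sulfoxide reductase, at 91.1 and 39.4 against 29.4 and 8.16 CPM (1.95). For each of these genes both members' sums lay above both sums of cells with 0 Cd36 UMIs.

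**Figure D2:**
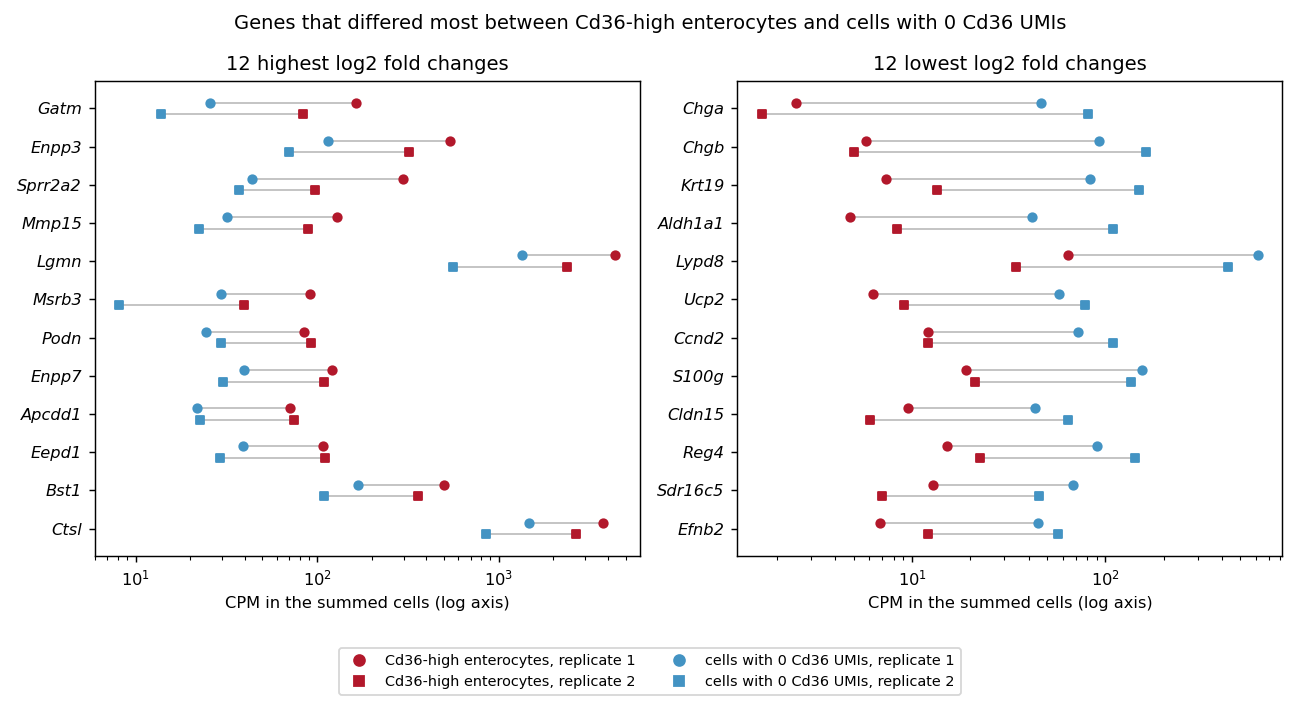
Levels in CPM (horizontal axis, log scale) of the 12 genes with the highest (left) and the 12 with the lowest (right) log2 fold change by the naming rule, in members (red) and cells with 0 Cd36 UMIs (blue), with circles for replicate 1 and squares for replicate 2. The naming rule admits only genes that run the same way in both mice. In replicate 1 the lines run from 25.7 to 165 CPM for Gatm and from 614 down to 64.0 CPM for Lypd8.

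Markers of hormone-producing enteroendocrine cells were among the genes that fell furthest. Chga, which encodes the granule protein chromogranin A, was at 2.51 and 1.67 CPM in members and 46.2 and 81.5 CPM in cells with 0 Cd36 UMIs (-4.70, SE 0.23), and Chgb at 5.77 and 5.01 against 92.4 and 162 CPM (-4.35). Of the 12 enteroendocrine markers 11 were lower in members and 0 higher, with a median of -3.58, and the summed list stood at 23.3 and 16.0 CPM in members, 22.4 and 25.4 CPM in cells between and 296 and 347 CPM in cells with 0 Cd36 UMIs. The summed level was thus high only in the class with 0 Cd36 UMIs. Without cells holding a UMI of that list, an alternative chosen after the data were seen, no marker can be called, since all are then at 0, and 4131 genes differed in all. Reg4, a secreted lectin typical of secretory cells, was at 15.1 and 22.4 CPM against 90.7 and 142 CPM (-2.51).

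Lypd8, which encodes a secreted protein that binds flagellated bacteria, was at 64.0 and 34.4 CPM in members and 614 and 431 CPM in cells with 0 Cd36 UMIs (-3.30, SE 0.11, adjusted p = 1.5e-12), and it also fell from cells between (309 and 206 CPM). Krt19, a keratin of progenitor and ductal epithelium, was at 7.28 and 13.3 CPM against 82.8 and 150 CPM (-3.37), with 530 and 664 CPM in cycling cells. Ccnd2, a cyclin of the G1 phase, was at 12.0 CPM in each mouse against 72.4 and 110 CPM (-2.75), with 824 and 1065 CPM in cycling cells. Ucp2, a carrier of the mitochondrial inner membrane, was at 6.27 and 9.01 against 57.2 and 78.7 CPM (-3.03), and S100g, the calcium-binding protein calbindin-D9k, at 19.1 and 21.03 against 154 and 136 CPM (-2.75). Aldh1a1, which makes retinoic acid, was at 4.77 and 8.34 CPM against 41.8 and 110 CPM (-3.35). Cldn15, a claudin that forms sodium pores in the tight junction (-2.57), Sdr16c5, a retinol dehydrogenase (-2.39), and Efnb2, an ephrin of the Eph signaling pathway (-2.34), completed the 12. Cells between held Krt19 at 13.4 and 26.2 CPM and Ccnd2 at 12.65 and 17.41 CPM. Against them Krt19 fell less (-0.87) and Ccnd2 did not pass (-0.23, adjusted p = 0.41). Among enterocytes, Ccnd2 was thus high only in the class with 0 Cd36 UMIs.

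The genes of fat uptake beside Cd36 moved in both directions. Of 13 genes tested on the list of fatty acid uptake and binding, 3 rose, 3 fell and 7 did not pass, with a median of -0.04. Slc27a4, a fatty acid transport protein that activates fatty acids as they enter, rose from 614 and 525 CPM to 684 and 587 CPM (0.28, adjusted p = 0.0099). Slc27a2, of the same family, was at 48.4 and 68.1 CPM in members and 64.0 and 103 CPM in cells with 0 Cd36 UMIs (-0.38), and Dbi, the acyl-CoA binding protein, at 688 and 747 against 947 and 1182 CPM (-0.44). With cells matched in ribosomal protein share, an alternative added after the data were seen, the change of Dbi was 0.05 and did not pass. Got2, a mitochondrial aminotransferase also described as a fatty acid binding protein of the plasma membrane, fell by 0.52 on the log2 scale. Of the scavenger receptors related to CD36, Scarb2, a lysosomal membrane receptor, was at 112 and 94.5 CPM against 91.0 and 82.3 CPM (0.37, adjusted p = 0.0048), and Scarb1, the HDL receptor, at 7.28 and 3.004 against 6.01 and 5.70 CPM, which did not pass.

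The enzymes that rebuild triglyceride differed little. Of 17 genes tested for fatty acid activation and triglyceride synthesis, 6 rose, 1 fell and 10 did not pass, with a median of 0.16. Dgat2, which adds the last fatty acid, was at 1959 and 2564 CPM in members and 2017 and 2360 CPM in cells with 0 Cd36 UMIs (0.16, adjusted p = 0.13), Mogat2, which acylates monoglyceride, at 476 and 541 against 535 and 537 CPM (0.04), and Acsl5, an acyl-CoA synthetase, at 907 and 1086 against 951 and 1136 CPM (0.06). The levels of these 3 genes overlapped between the classes. Those that rose were of lower level, such as Acsl3, another acyl-CoA synthetase, at 344 and 354 against 214 and 273 CPM (0.66), and Agpat2, which makes phosphatidic acid, at 235 and 257 against 171 and 166 CPM (0.67).

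The small apolipoproteins rose, and most of the machinery that assembles and exports chylomicrons did not pass the test. Of 17 genes tested on that list 6 rose, 1 fell and 10 did not pass, with a median of 0.10. Apoc3, which slows the lipolysis of chylomicrons, was at 3415 and 3942 CPM in members and 1761 and 2169 CPM in cells with 0 Cd36 UMIs (1.03, SE 0.08, adjusted p = 1.2e-08). Apoc2, the activator of lipoprotein lipase, was at 7419 and 8494 CPM against 4025 and 5293 CPM (0.91). Apob, the scaffold protein of the particle, was at 2010 and 1686 CPM against 1625 and 1336 CPM (0.44), and the classes did not overlap. P4hb, a subunit of the lipid transfer complex, was at 3744 and 3984 against 2954 and 3262 CPM (0.44), and Mttp, its partner, at 1762 and 2605 against 1624 and 2345 CPM (0.26, adjusted p = 0.014). Sar1b, the small GTPase of chylomicron export, was at 173 and 209 against 211 and 209 CPM and did not pass. Apobec1, which edits the Apob transcript, was the gene of the list that fell (36.9 and 38.4 against 55.9 and 63.3 CPM, -0.53).

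For lipid droplets and lipolysis 7 of 13 tested genes rose, 1 fell and 5 did not pass, with a median of 0.23. The largest rise was of Lipa, the lysosomal acid lipase, at 383 and 428 CPM in members and 218 and 231 CPM in cells with 0 Cd36 UMIs (0.97). Abhd5, the co-activator of the triglyceride lipase ATGL, was at 61.0 and 62.8 CPM against 44.2 and 42.9 CPM (0.62), and Plin3, a coat protein of droplets, at 1101 and 1330 against 1068 and 1185 CPM (0.23, adjusted p = 0.034). Plin2, the other coat protein at a high level, was at 496 and 598 against 592 and 711 CPM and did not pass (-0.13). Against cells between, 2 of 14 tested genes were higher and 1 lower, with a median of 0.14 (-0.02 and -0.01 within the replicates). Cut into 3 parts by Cd36 share, cells between held Plin3 at 1134 to 1212 CPM and 1381 to 1413 CPM, above the members.

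Of 13 genes tested for cholesterol uptake and efflux 7 rose, 0 fell and 6 did not pass, with a median of 0.34. Npc1l1, the transporter that takes up cholesterol from the gut lumen, was at 447 and 408 CPM in members and 244 and 231 CPM in cells with 0 Cd36 UMIs (0.97, SE 0.08). Gramd1b, which carries cholesterol from the plasma membrane to the endoplasmic reticulum, was at 185 and 203 against 119 and 98.4 CPM (0.96), and Abcg8, a subunit of the pump that returns sterols to the lumen, at 136 and 163 against 99.5 and 122 CPM (0.56). For the first 2 genes both members' sums lay above both sums of the other class. They were named for large changes or after their values were seen, so this separation adds no support.

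Of 24 cholesterol synthesis genes tested 12 fell, 1 rose and 11 did not pass, with a median of -0.51. Stard4, which moves sterol between membranes, was at 59.97 and 41.05 CPM in members and 116 and 103 CPM in cells with 0 Cd36 UMIs (-0.99), and Srebf2, the regulator of the pathway, at 37.9 and 24.4 against 72.4 and 46.2 CPM (-0.81). Fdps, farnesyl diphosphate synthase, was at 14.6 and 17.4 against 42.7 and 29.2 CPM (-1.08). Idi1, which acts a step before it, had only 10 and 9 UMIs in the members (2.509 and 3.004 CPM) against 16.2 and 8.37 CPM (-2.08). Ebp, a sterol isomerase of the later pathway, was the gene that rose (72.8 and 64.8 against 65.8 and 46.6 CPM, 0.41). The fall was larger in replicate 1, where the median of the list was -0.75, than in replicate 2, where it was -0.24, and the difference between the mice was not tested.

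Of 13 fatty acid synthesis genes tested 7 fell, 0 rose and 6 did not pass, with a median of -0.29, and against cells between 3 of 12 fell and 0 rose. Fads2, a desaturase of polyunsaturated fatty acids, was at 9.53 and 4.34 CPM in members and 40.2 and 35.1 CPM in cells with 0 Cd36 UMIs (-2.27), and Fasn, fatty acid synthase, at 18.3 and 13.3 against 33.2 and 31.6 CPM (-0.89). Elovl6, which lengthens fatty acids and is at the highest level on the list, was at 208 and 169 against 197 and 155 CPM (0.22) and did not pass.

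**Figure D3:**
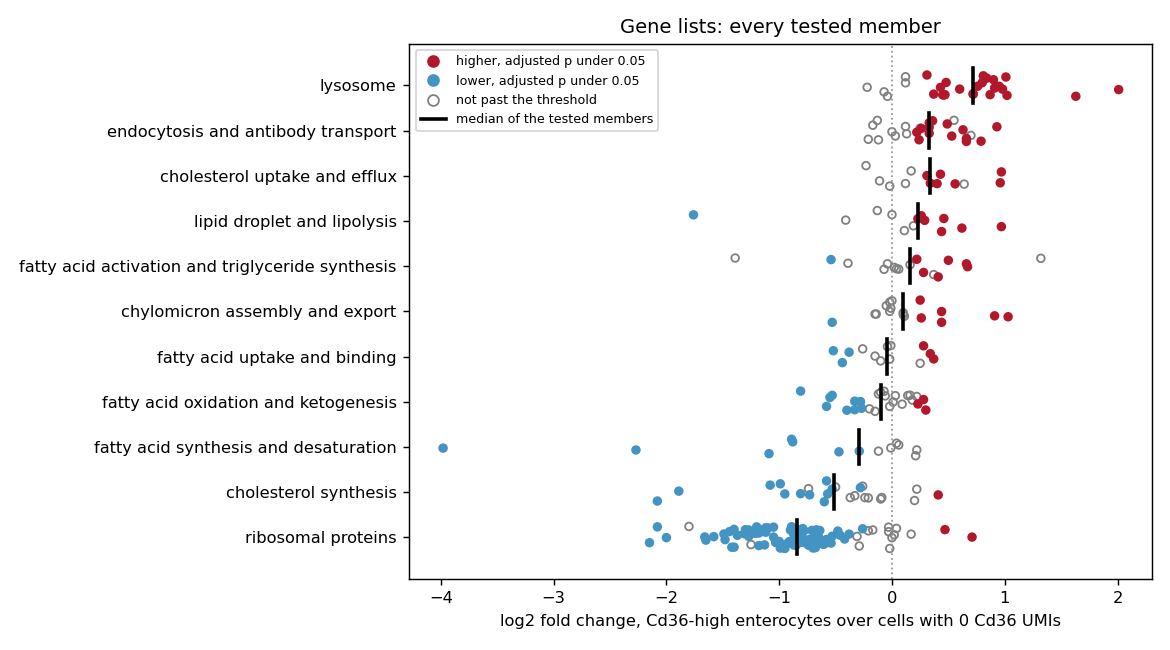
Log2 fold change of members over cells with 0 Cd36 UMIs (horizontal axis) for each tested gene of 11 lists, filled where the adjusted p was under 0.05, with the median of each list as a black bar. Of the lists drawn, which cover fat and cholesterol handling, uptake, lysosome and ribosome, the lysosome list has the highest median (0.72) and the ribosomal protein genes the lowest (-0.84).

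Of 27 genes tested for oxidation and ketogenesis 10 fell, 3 rose and 14 did not pass, with a median of -0.10. Acadvl, the very long chain acyl-CoA dehydrogenase, was at 59.97 and 75.76 CPM in members and 107 and 156 CPM in cells with 0 Cd36 UMIs (-0.81), and Cpt2, the inner carnitine palmitoyltransferase, at 62.5 and 81.8 against 104 and 130 CPM (-0.58). Hadh, which acts on shorter chains, rose (865 and 795 against 730 and 740 CPM, 0.30). When cells with 0 Cd36 UMIs were drawn to match the members in their ribosomal protein share, an alternative added after the data were seen, 1 of these genes was called lower. That setting used 774 and 501 drawn cells and called 1215 of 11161 tested genes lower. Cd36 is a known target of PPAR receptors, and of 20 other PPAR response genes tested 3 rose, 6 fell and 11 did not pass (median -0.16). Among all genes 14.1% rose and 14.7% fell. Aqp7, a glycerol channel, was at 47.2 and 58.4 against 19.4 and 25.5 CPM (1.37), whereas Gpd1, which makes glycerol 3-phosphate, was at 188 and 235 against 358 and 427 CPM (-0.77).

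Most genes of the lysosome list rose. Of 28 tested 23 were higher in members and 0 lower, against 14.1% higher among all genes, and the median was 0.72. Beside Lgmn and Ctsl, the largest changes were of Ctsb, cathepsin B, at 2358 and 2217 CPM in members and 1321 and 1144 CPM in cells with 0 Cd36 UMIs (1.02), and Gusb, which removes glucuronic acid from glycans, at 631 and 505 against 369 and 253 CPM (1.01). Ctsa, the protective carboxypeptidase, was at 1918 and 1943 against 1134 and 996 CPM (0.98). Lamp1, the main protein of the lysosomal membrane, was at 1284 and 1109 against 828 and 676 CPM (0.80). In each of these 4 genes both members' sums lay above both sums of the other class. They were named for large changes or after their values were seen, so this separation adds no support. Cd63 (441 and 352 against 506 and 402 CPM, -0.07) and Npc2 (188 and 205 against 214 and 181 CPM, 0.12) were among the 5 that did not pass.

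Many lysosome genes carry the CLEAR element, which the factor TFEB binds and whose core in its palindromic form reads TCACGTGA. The promoter windows of RefSeq (build GRCm38.p6, from 250 bases before to 50 after a start site) were searched for these letters, which are the same on both strands and contain the shorter E-box CACGTG. Windows were at hand for 19 of the 23 lysosome genes that rose. The 8 letters stood in windows of 3 of the 19, of 1 of the 4 lysosome genes with a window that did not pass, and of 1.12% of all 27025 genes, and the E-box in 7 of the 19 and 8.09% of all genes. The 3 windows are shown around the element because they belong to genes that moved together, with the 8 letters in capitals, and a match of letters is not a bound site.
Atp6v1a, a subunit of the proton pump, chr16:44139358-44139417, minus strand: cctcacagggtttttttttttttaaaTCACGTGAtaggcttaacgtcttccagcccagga
Ctsa, chr2:164833734-164833793, plus strand: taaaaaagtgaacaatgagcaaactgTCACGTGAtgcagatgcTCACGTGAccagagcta
Ctsd, cathepsin D, chr7:142387893-142387952, minus strand: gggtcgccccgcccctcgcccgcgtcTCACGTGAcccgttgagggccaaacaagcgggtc
Ctsa held 2 copies within 60 bases, the first 13 bases before the start site, and Atp6v1a and Ctsd held 1 each, 132 and 99 bases before it. Ctsd was at 744 and 763 CPM in members and 494 and 440 CPM in cells with 0 Cd36 UMIs (0.81), and Atp6v1a at 303 and 297 against 286 and 242 CPM (0.31, adjusted p = 0.010).

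Of 25 genes of endocytosis and antibody transport tested, 14 were higher, 0 lower and 11 did not pass, with a median of 0.33. Against cells between, 4 were higher and 5 lower, with a median of 0.09. Fcgrt, the neonatal Fc receptor that carries maternal IgG across the jejunum, was at 6003 and 5468 CPM in members and 3753 and 3467 CPM in cells with 0 Cd36 UMIs (0.79, SE 0.07, adjusted p = 2.5e-07). Genes of the receptor complex for intact protein rose, with the adaptor Dab2 at 550 and 426 against 411 and 270 CPM (0.66), the receptor Cubn at 286 and 212 against 252 and 135 CPM (0.53) and its membrane partner Amn at 1451 and 1017 against 1185 and 750 CPM (0.49). Each was higher in replicate 1 in both classes, and the classes overlapped for Cubn and Amn and not for Dab2. Exoc3l4, related to a subunit of the exocyst, was at 168 and 188 against 97.9 and 105 CPM (0.93), and Rab11a, a GTPase of recycling endosomes, at 847 and 796 against 641 and 501 CPM (0.66). Mamdc4, an apical endosomal protein, was at 1505 and 1529 against 1708 and 1538 CPM and did not pass.

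At the brush border, genes moved in both directions. Of 22 tested 8 rose, 5 fell and 9 did not pass, with a median of -0.01. Ace, the angiotensin-converting dipeptidase, was at 1658 and 1508 CPM in members and 782 and 650 CPM in cells with 0 Cd36 UMIs (1.27), Cdhr2, a protocadherin that links microvilli, at 982 and 932 against 645 and 554 CPM (0.80), and Espn, an actin bundler, at 438 and 420 against 267 and 250 CPM (0.85). Anpep, aminopeptidase N, fell from 1081 and 1637 to 394 and 587 CPM (-1.34), and Mgam, the maltase-glucoamylase, from 260 and 208 to 84.8 and 97.5 CPM (-1.24). Vil1, villin, was at 387 and 386 against 581 and 579 CPM (-0.46). Of 17 sugar and amino acid transporters 6 rose and 3 fell, with a median of 0.21. Slc2a2, the basolateral glucose carrier, was at 261 and 297 against 181 and 209 CPM (0.64), and Slc6a20a, a proline transporter, at 12.55 and 11.01 against 41.6 and 51.2 CPM (-1.82). Against cells between, 1 of the 17 transporters was higher and 7 were lower, with a median of -0.08.

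Most genes of the villus base were lower in members. Of 10 villus base genes tested 8 fell and 2 rose, with a median of -1.74. Beside Lypd8, Ccl25, a chemokine that draws lymphocytes to the gut, was at 40.4 and 71.1 CPM in members and 211 and 344 CPM in cells with 0 Cd36 UMIs (-2.20), and Nlrp6, an innate immune sensor, at 37.9 and 41.0 against 135 and 150 CPM (-1.73). The genes that rose were Reg3b and its near-identical neighbour Reg3g, which encode antimicrobial lectins. Reg3b went in opposite directions in the mice, at 99.4 against 14.2 CPM in replicate 1 and 0.667 against 1.73 CPM in replicate 2, so its call rests on replicate 1. Reg3g had 3 UMIs in the members of replicate 2. The villus tip list was mixed, with 5 of 15 tested higher, 3 lower and a median of 0.03. Enpp3 led it, followed by Tmigd1, an adhesion protein of mature enterocytes (41.6 and 26.4 against 19.02 and 7.22 CPM, 1.51), while Krt20, a keratin of the upper villus, was lower (20.6 and 30.0 against 30.6 and 75.6 CPM, -0.86). Of 9 stem markers tested 7 fell and 1 rose, with a median of -1.52, while against cells between 3 were higher and 2 lower, with a median of -0.21.

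Of 94 ribosomal protein genes tested, 79 were lower in members and 2 higher, with a median of -0.84, and together they took a median of 2.13% and 2.14% of a member's UMIs against 3.06% and 3.22% in cells with 0 Cd36 UMIs. Rps19 was at 83.8 and 86.8 CPM in members against 352 and 441 CPM (-2.08), and Rpl39 at 78.3 and 88.1 against 280 and 287 CPM (-1.65). Single genes of this family share reads with pseudogenes and are uncertain. When cells with 0 Cd36 UMIs were drawn to match the members in ribosomal protein share, 22 lysosome genes were called higher and 4 villus base genes lower. In all, 2426 of 11161 tested genes differed, 1211 higher and 1215 lower. The draw kept 774 and 501 cells with 0 Cd36 UMIs, so its counts are not directly comparable with those of the full comparison.

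Of the 5 genes the study names for the jejunum 4 rose, Fcgrt among them, and Fam13a did not pass. Since the study chose them in these samples, their direction between regions is not independent evidence. Serpina1a, a protease inhibitor with near-identical copies, was at 431 and 555 CPM in members and 169 and 207 CPM in cells with 0 Cd36 UMIs (1.51), with 2.10 and 3.29 CPM in ileal enterocytes. Mfsd2a, a carrier of lysophospholipids, was at 233 and 599 against 102 and 433 CPM (0.94), with 0.621 and 0.653 CPM in the ileum. Paqr9, a membrane protein of the progestin and adipoQ receptor family, was at 414 and 554 against 254 and 329 CPM (0.85). Fam13a was at 404 and 514 against 495 and 667 CPM (-0.21, adjusted p = 0.050).

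**Figure D4:**
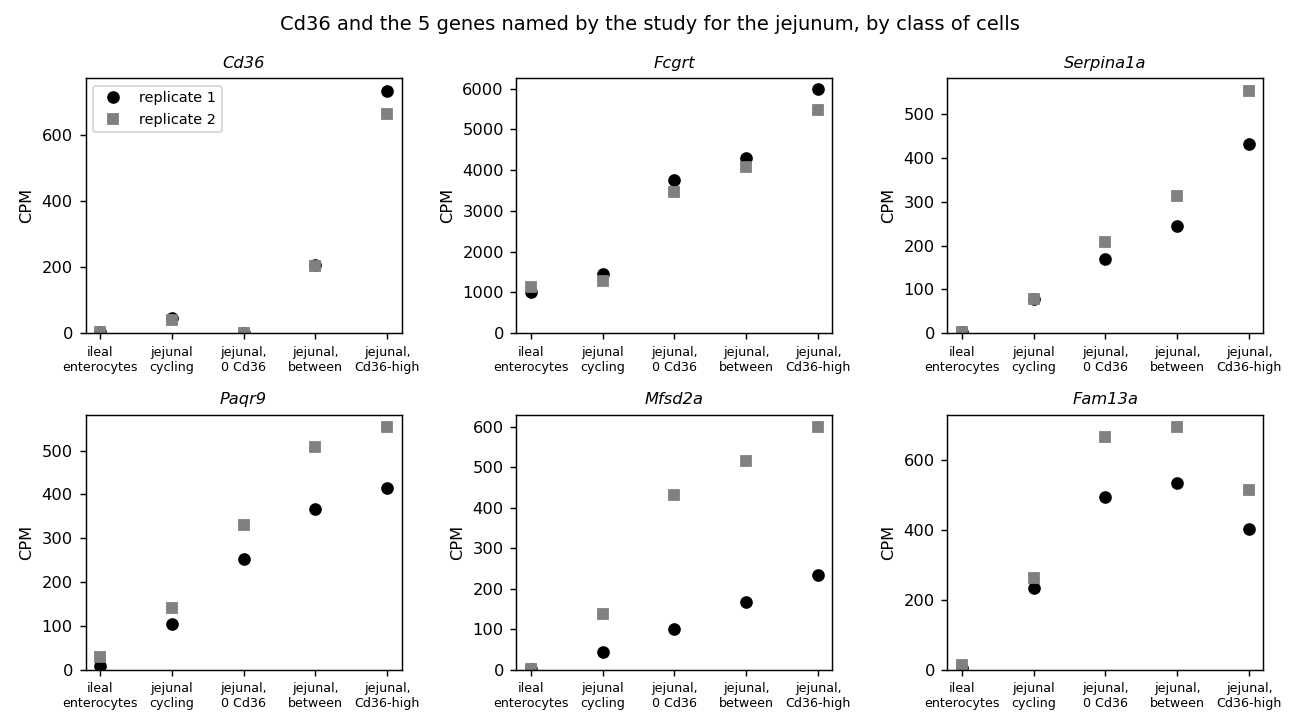
CPM (vertical axis, from 0) of Cd36 and of the 5 jejunum genes named by the study in 5 classes of cells, with circles for replicate 1 and squares for replicate 2. Serpina1a climbs from 2.10 and 3.29 CPM in ileal enterocytes to 431 and 555 CPM in members, while Fam13a is lower in members than in cells between. Cd36 chose the 3 classes on the right.

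Of 8 genes tested that the study names for the ileum 4 rose, among them Dab2, Cubn and Amn, and 2 fell. Bex4 was at 112 and 22.03 CPM in members and 65.6 and 8.88 CPM in cells with 0 Cd36 UMIs (1.02), well under its 563 and 420 CPM in ileal enterocytes. Afp, alpha-fetoprotein, was at 4.01 and 2.34 against 8.89 and 13.4 CPM (-1.59), with 182 and 163 CPM in the ileum. Without cells holding a UMI of the enteroendocrine list its change was 0.59 and did not pass. Cldn8, a claudin of tight junctions, was at 2.01 and 0.334 against 12.6 and 1.01 CPM (-2.42), on 8 and 1 UMIs in the members, with 136 and 111 CPM in the ileum. Cpne8, a copine, differed by -0.36 and did not pass, and Anxa8, an annexin, was too low to be tested. How the members' lysosomal levels compared with ileal enterocytes differed by gene. Ileal enterocytes held 4287 and 3328 CPM of Lgmn and 2309 and 2531 CPM of Ctsb. For these genes the members were higher in replicate 1 and lower in replicate 2. Ctsl was higher in members in both mice (3768 and 2682 CPM, with ileal levels of 1613 and 2042 CPM). Gusb was slightly lower in members in both (631 and 505 CPM, with ileal levels of 638 and 519 CPM). The regions were not tested against each other here.

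Of 24 transcription factors of enterocytes tested 4 rose, 5 fell and 15 did not pass, with a median of -0.04, so the shares called lie near the 14.1% and 14.7% of all genes. Klf4, a factor of differentiated epithelium, was at 197 and 187 CPM in members and 98.2 and 102 CPM in cells with 0 Cd36 UMIs (1.06). Maf, a leucine zipper factor, rose less, from 884 and 840 to 1028 and 1022 CPM (0.37). Gata4, which defines the jejunum, was at 82.8 and 74.8 against 130 and 124 CPM (-0.56). Hnf4a, a general enterocyte factor, was at 257 and 269 against 249 and 262 CPM (0.16), and Pparg, a receptor for fatty acids, at 18.1 and 22.7 against 18.9 and 19.6 CPM. Neither passed.

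Markers of other cell types were read beside these results. Csf1r, the receptor for colony stimulating factor 1, was at 276 and 285 CPM in members and 139 and 137 CPM in cells with 0 Cd36 UMIs (1.15). Ileal enterocytes held it at 204 and 179 CPM. Of 4 tested genes of the macrophage list 3 rose. The list summed to 295 and 299 CPM in members, most of it Csf1r. Its sum was 233 and 257 CPM in cells between and 149 and 148 CPM in cells with 0 Cd36 UMIs. The markers C1qa, C1qb, C1qc and Tyrobp had 0 UMIs in the members of either library. Each C1q gene was at most at 0.144 CPM in cells with 0 Cd36 UMIs too, so these zeros tell little. Cd68, a lysosomal membrane protein of phagocytes, was at 8.53 and 5.67 against 3.50 and 2.24 CPM (1.43, adjusted p = 0.0032), and Mrc1, the mannose receptor, at 6.77 and 6.01 against 3.79 and 3.83 CPM (0.88, adjusted p = 0.047). Adgre1, which encodes the macrophage antigen F4/80, was at 2.51 and 1.33 against 0.906 and 1.01 CPM and did not pass. Trac, which encodes the constant part of the T cell receptor alpha chain, was at 47.2 and 50.1 against 13.8 and 20.5 CPM (1.66), while Cd3e had 0 UMIs in members. Of 5 endothelial markers tested none passed, and Gpihbp1 and Fabp4 had 0 UMIs in members. Cells with 0 Cd36 UMIs also held no Gpihbp1, and Fabp4 at 0.12 and 0 CPM, so these zeros tell little. The endothelial list summed to 45.1 and 36.4 CPM in members and 55.0 and 45.3 CPM in cells with 0 Cd36 UMIs. Of 6 leukocyte markers tested 1 rose and 4 fell, of 8 goblet markers 2 fell and 0 rose, of 4 Paneth markers 1 fell and 0 rose, and of 3 tuft markers 0 passed. Against cells between 4 of 8 goblet markers were higher and 0 lower (median 0.67), and 2 of 5 Paneth markers higher and 0 lower (median 0.61). Whether RNA of other cells takes part in any result was not tested. Scrublet marked 0 and 1 members as doublets and 0 cells of the other classes in either library, so its marks do not tell the classes apart.

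The second comparison set the members against cells between, which express Cd36 at a lower share but were deeper. Of 14795 genes tested 3065 passed (20.7%), 1301 higher in members (8.79%) and 1764 lower (11.9%). Both comparisons share the members' sums. The leading rises were of Sprr2a2 (1.58), Mmp15 (1.44), Enpp3 (1.33), Myo3a (1.10) and Podn (1.10). Myo3a, a myosin of actin protrusions, was at 559 and 673 CPM in members and 270 and 331 CPM in cells between. The leading falls were of Lypd8 (-2.32), S100g (-1.75), H19 (-1.67), Rps23 (-1.60) and Agmat (-1.42). H19, an imprinted noncoding RNA of growing tissue, was at 29.1 and 53.1 CPM in members and 110 and 159 CPM in cells between, and Agmat, a mitochondrial ureohydrolase, at 27.1 and 41.0 against 84.0 and 104 CPM.

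Against cells between, 17 of 28 lysosome genes were higher and 1 lower (median 0.30), and 79 of 94 ribosomal protein genes were lower and 2 higher (median -0.50). Of 17 chylomicron genes 4 rose and 10 fell (median -0.21), with Apoc3 (0.64) and Apoc2 (0.59) still higher and Sar1b lower (-0.40). When cells between were matched to the members in UMIs, no chylomicron gene was called lower and 16 lysosome genes were called higher. In all, 1054 of 11230 tested genes differed, 508 higher and 546 lower. The matching drew 774 and 501 cells between, so its counts are not directly comparable with those of the full comparison. Without the library as a block edgeR called 0 genes in this comparison, with 1567 at an unadjusted p under 0.05.

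Across 5 classes of enterocytes ordered by Cd36 share, with cells between cut into 3 equal parts, the summed lysosome list was at 17414, 19104, 23568, 27134 and 29550 CPM in replicate 1 and at 13758, 16794, 20133, 23350 and 25486 CPM in replicate 2. The summed ribosomal protein genes ran the other way, from 40095 to 21976 CPM and from 40701 to 21726 CPM. The summed chylomicron list ran from 14758 to 20849 CPM and from 17306 to 23388 CPM, and most of this difference lay in Apoc2, Apoc3 and P4hb. Median depth did not follow this order, being 4240, 11170, 5716, 4500 and 3842 UMIs in replicate 1. Cells with 0 Cd36 UMIs and the lowest part of the cells between were close in Enpp3 (115 and 119 CPM in replicate 1, 70.2 and 74.9 CPM in replicate 2). Because the range was cut by measured values, these levels are a description.

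**Figure D5:**
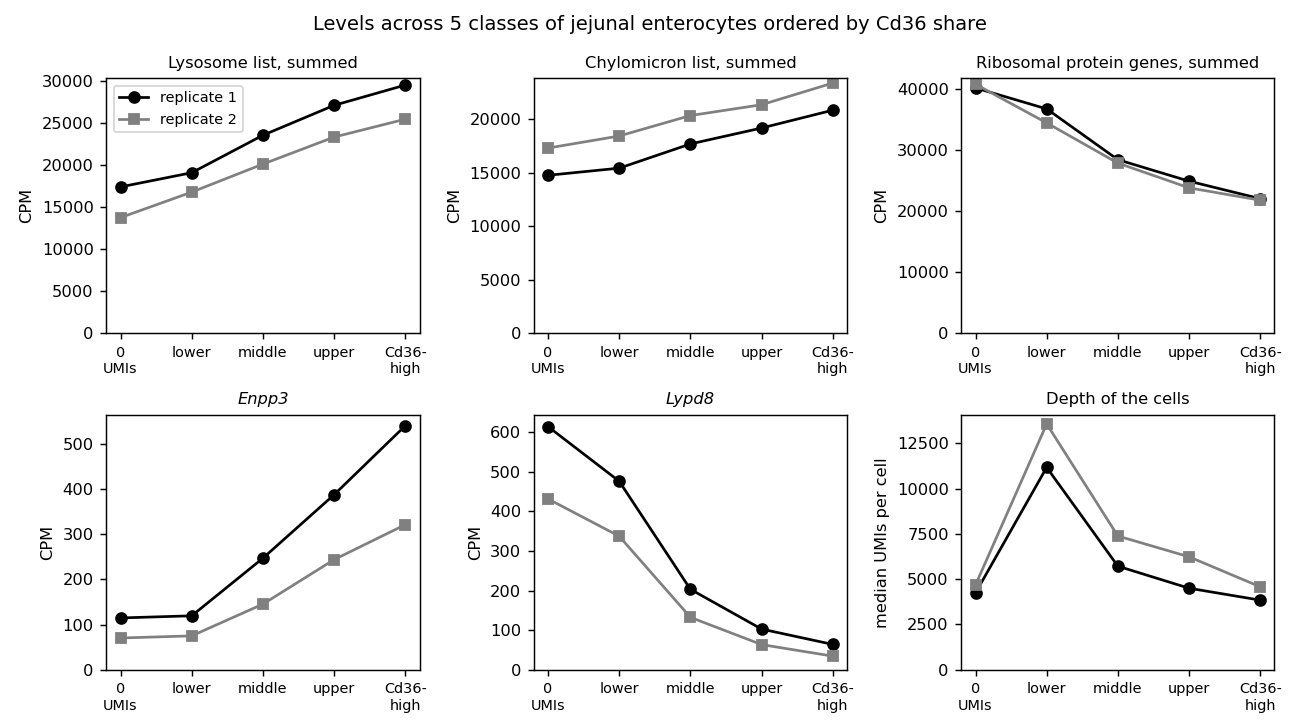
Levels in CPM (vertical axis, from 0) of 3 summed lists and 2 genes, and the median depth, in cells with 0 Cd36 UMIs, the lower, middle and upper part of cells between, and members, with black circles for replicate 1 and grey squares for replicate 2. Lysosome genes and Enpp3 climb and ribosomal protein genes and Lypd8 fall in both mice, while the depth peaks in the lower part of the cells between.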

How the data were processed

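The authors aligned and counted the 4 PIPseq libraries with PIPseeker at sensitivity level 3. The submitters' processing notes name build GRCm39, and the annotation is not given in the sources used here. The deposited values are whole UMI counts for each gene in each called cell. Per the labels, samples were grouped by region and mouse. Doublets were scored with Scrublet (scanpy 1.11.5) and not removed. Counts of the 2 jejunum libraries were summed per library and class, filtered with filterByExpr, scaled by TMM and tested in edgeR 4.0.16 (R 4.3.3) with the library as a block, so that the 2 classes of a mouse are paired, and Benjamini-Hochberg adjusted over all genes. The 12 genes of the rule, Cd36 included, were not tested. With 4 sums per comparison and the block, a gene's own spread comes from 2 mice only. The test also borrows variance across genes, so a small p-value does not measure the spread between mice alone. DESeq2 1.42.0 and other settings were alternatives. The model was checked on simulated counts with known changes. These were drawn without a choice of cells by Cd36 share, so the check does not cover that choice. Single CPM values stand for summed cells, and intervals are exact binomial.

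The members and gene lists were chosen with earlier results of these data known. Named genes were, among those past an adjusted p of 0.05, at 50 CPM or more and alike in direction in both mice, leaving out gene models and mitochondrial genes, the 12 highest and 12 lowest in the first and the 5 and 5 in the second comparison, then per list the 3 of highest level and the 2 of largest change, and a fixed set. Other list genes were picked after their values were seen. Some genes that the rule names are not reported here.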

Additional observations from a re-analysis of the deposited data

Results flagged for a closer look

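Ileal enterocytes, which enter no comparison here, held a Cd36 UMI in 3.23% of cells in replicate 1 and 2.71% in replicate 2. Jejunal cells with 2 or more cycling genes, also outside the comparisons, held one in 20.6% and 17.7% of cells.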

How the results depend on the processing

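In the first comparison, members against cells with 0 Cd36 UMIs, 4017 genes differed. The count fell to 1667 with DESeq2, 2344 with cells thinned to 2000 UMIs, 1600 with thinned cells chosen again, 2622 with the top 5% by Cd36 share, and 1474 without cells holding a UMI of the blood, vessel and mesenchyme lists. In members against cells between, 3065 genes differed, against 974 with DESeq2, 1023 thinned, 83 thinned and chosen again, 1868 in cells of 5000 or more UMIs, 1054 with comparison cells matched in UMIs and 571 without cells of those marker lists. Leaving out cells of those marker lists kept 223 and 126 members, since 76.1% and 79.0% of the members held such a UMI. Counts under the remaining settings with the block stayed within 1.5 times. Among the alternatives added after the data were seen, matching in ribosomal protein share left 2426 and 1023 genes, and leaving out cells with a UMI of the goblet, enteroendocrine, tuft, Paneth and stem lists left 375 and 97, with 131 and 77 members. At library totals without TMM factors, 30.6% of the calls were higher in the first comparison in place of 48.9%, and 27.7% in place of 42.4% in the second. In these settings the cause was not tested.

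The library is the block because both classes of a pair come from the same mouse. With no replicate block, 345 genes were called in the first comparison and 0 in the second, where 1567 had an unadjusted p under 0.05 in edgeR and DESeq2 with the block called 974.

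Single genes that reversed were 3. Afp stood at 0.59 without cells holding a UMI of the enteroendocrine list, Dbi at 0.05 with cells matched in ribosomal protein share, and Reg3b at -1.06 without replicate 1 and 2.84 without replicate 2. The Cd36 level of the members was a mean of 697 CPM. Cells chosen again on a random portion of their UMIs, of which 59.7% and 59.1% were members, stood at 368 CPM in the other portion, and the share of enterocytes with a Cd36 UMI fell from 52.0% to 25.95% in cells thinned to 2000 UMIs. Leaving out a replicate leaves 1 mouse with no residual degrees of freedom, so those values carry no test. At a median of 3 Cd36 UMIs per member, depth limits how well a single cell can be placed.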

Other observations

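Immediate early genes rise within minutes of a stimulus and during dissociation. Of 22 immediate early and heat shock genes tested 6 were lower in members and 2 higher, with a median of -0.21, beside 14.7% lower and 14.1% higher of all genes. Egr2 was at 5.27 and 6.67 CPM in members and 14.7 and 24.3 CPM in cells with 0 Cd36 UMIs (-1.55), and Nr4a1 at 5.52 and 5.34 against 15.5 and 31.0 CPM (-1.88), whereas Dusp1, a phosphatase that ends MAP kinase signaling, was at 117 and 109 against 73.4 and 98.4 CPM (0.55). Of the 13 mitochondrially encoded genes 5 were higher and 0 lower against cells with 0 Cd36 UMIs (median 0.18), and 13 of 13 were higher against cells between (median 0.55). The first median was 0.23 in replicate 1 and 0.01 in replicate 2. Their summed level was 70823 CPM in members against 63615 CPM in cells with 0 Cd36 UMIs in replicate 1, and 93227 against 96044 CPM in replicate 2.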
